A study of Homo sapiens with 8 samples.

Results

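The genes described here are 35 genes of homologous recombination and of the Fanconi anaemia pathway, which together mend DNA breaks and crosslinks that arise when replication forks are damaged. They were taken from a named list of pathway genes, chosen with earlier results of these data known. Each was read from the brightest probe set annotated to it alone. Of the 35 genes, 31 had such a probe set and all 31 passed the filter on dim genes, out of 14731 genes tested; BRCA2, FANCA, FANCD2 and RBBP8 were not analysed here. HTETOP cells, a line derived from the human fibrosarcoma line HT1080 whose TOP2A is under tetracycline control in treated and vehicle cells alike, were hybridised to 8 arrays. One array came from cells given doxycycline at 1 µg/ml and 1 from its vehicle, and 3 arrays each came from cells given dexrazoxane at 100 µM or its vehicle, all for 24 h. Each array carried RNA pooled from 3 passages, numbered 15 to 17 for the doxycycline pair. Doxycycline shuts off TOP2A in this line, and dexrazoxane blocks the catalytic cycle of type II topoisomerases. Either treatment was compared only with its own vehicle, and any other action of it was not tested. Nothing in the labels ties the numbered arrays to separate cultures. The p-values therefore speak of spread between arrays or, where arrays of the same number are paired, between the differences of the pairs. Part of that spread may be technical.

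Homologous recombination copies lost sequence from an undamaged sister chromatid. Broken ends are bound and trimmed to single strands, BRCA1, PALB2 and BRCA2 load a recombinase onto them, the strand invades the sister, and helicases and nucleases separate the joined molecules. In the Fanconi pathway a core ubiquitin ligase complex and its conjugating enzyme UBE2T modify the FANCI and FANCD2 clamp at blocked forks, which brings in nucleases and hands the break to recombination. Sister chromatids exist after replication, and transcripts of many of these genes are known to be most abundant in S and G2 phase.

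TOP2A was checked first. Its log2 value was 11.98 on the doxycycline vehicle array and 6.02 on the doxycycline array, and it averaged 12.45 ± 0.086 (SD, n = 3) with the dexrazoxane vehicle and 10.88 ± 0.339 (SD, n = 3) with dexrazoxane. Array medians were 4.81 and 4.82 in the doxycycline pair and 5.49 to 5.57 on the other 6 arrays, so levels were compared within each treatment and its own vehicle. The brightest mesenchymal markers were VIM, FN1 and SPARC (13.80, 11.99 and 11.93 as dexrazoxane vehicle means), and 10 of 11 passed the filter. In the same list COL1A2, THY1 and PDGFRB were dim, at 5.71, 6.08 and 6.47, and NT5E was below the filter. Of the markers of other cells, 3 of 7 epithelial, 2 of 6 leukocyte and 3 of 5 endothelial genes passed it. EPCAM, CDH1, PTPRC and CDH5 were among those below. The leukocyte genes that passed were CD3E and LYZ (7.01 and 5.45), and the endothelial ones PECAM1, TEK and VWF (6.56, 6.52 and 5.41). Passing the filter thus does not show that a gene was expressed. Among the repair genes FANCM, FANCB, RAD51D, XRCC2 and XRCC3 read below PECAM1 and TEK, at 6.38, 6.46, 6.49, 6.51 and 5.40. The keratin genes KRT8 and KRT18 were the bright epithelial markers, at 9.70 and 11.16. With dexrazoxane KRT8 rose by 0.51 ± 0.10 in the paired fit described next (limma adjusted p = 0.0334) and KRT18 differed by 0.26 (0.119). Without the pairing limma called neither gene (unadjusted p of 0.0675 and 0.062). Their part in the results was not tested.

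Vehicle array 1 stood apart before any treatment effect was considered. Against the mean of the 3 vehicle arrays the median repair gene lay 0.30 higher on vehicle array 1 and 0.16 and 0.12 lower on vehicle arrays 2 and 3, while the median of all tested genes lay between -0.03 and 0.01. On the dexrazoxane arrays 1, 2 and 3 the repair genes lay at 0.01, -0.41 and -0.47. Array 1 was thus the highest of its group with and without the drug, and dexrazoxane array 1 lay above vehicle arrays 2 and 3. Arrays of the same number were therefore also compared as pairs, in a second limma fit with the replicate number as a block. That choice came from these same data, and the labels do not say what a number stands for.

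**Figure D1:**
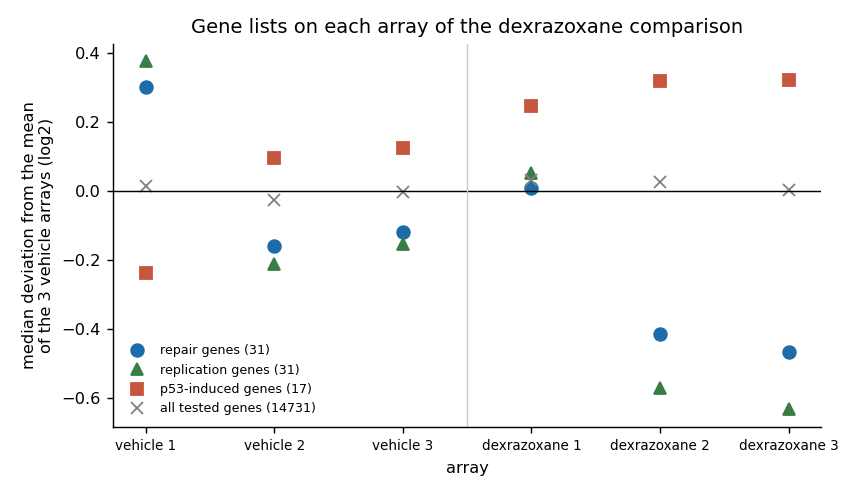
Median deviation of each gene list from the mean of the 3 vehicle arrays (log2, vertical axis) on the 6 arrays of the dexrazoxane comparison, with 1 symbol per list and array. The 31 repair genes (circles) and the 31 replication genes (triangles) were highest on vehicle array 1 and lowest on dexrazoxane array 3, the 17 p53-induced genes (squares) ran the other way, and all tested genes (crosses) stayed near 0.

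Most repair genes read lower with dexrazoxane, by modest amounts. Of 31 members 27 had a difference below 0 (87.1%), against 45.4% of all tested genes, and the median member differed by -0.24 (log2) against 0.02 over all genes. The median was -0.28, -0.22 and -0.29 in pairs 1, 2 and 3, and 21 members were lower in all 3 pairs, where 19.4% of all genes were. In the limma fit paired by replicate number 10 of 31 members (32.3%) fell and 0 rose, against 2.44% of all genes lower and 2.42% higher. They were EXO1, BARD1, BRIP1, RAD51AP1, BLM, RMI1, FANCM, UBE2T, FANCI and POLQ. The limma fit without the block called 0 members and 0% of all genes lower; at an unadjusted p under 0.05 it held 5 members lower and 0 higher, against 2.04% of all genes lower. Treated arrays lay wholly below vehicle arrays for 3 members, RAD51AP1, RAD54B and RAD51D, where 3.62% of all genes did so. In bulk RNA a smaller share of cells in S and G2 phase and less transcript per cell cannot be told apart.

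Array 1 bore on these counts. Without pair 1 the paired limma fit called 2 members, FANCI and RAD51AP1, with 28 of 31 still below 0 and a median of -0.27. Over all genes the lower calls went from 360 to 56 of 14731 (0.38%), so the loss was general and not one of the members alone. The differences of the 10 members themselves stayed between -0.71 and -0.32 without pair 1. Without vehicle array 1 alone the median was -0.13, and without dexrazoxane array 1 it was -0.44. Of the 10 called members, FANCI and RAD51AP1 kept their calls under all 10 paired alternatives, with limma adjusted p of 5.6e-05 to 0.0355 and 6.03e-05 to 0.0473. EXO1, BARD1 and RMI1 lost theirs without pair 1 (limma paired adjusted p of 0.0624, 0.06 and 0.078, the highest of ranges that began at 0.000228, 0.000299 and 0.000879), while their differences there, -0.65, -0.62 and -0.48, were no smaller than with all pairs.

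**Figure D2:**
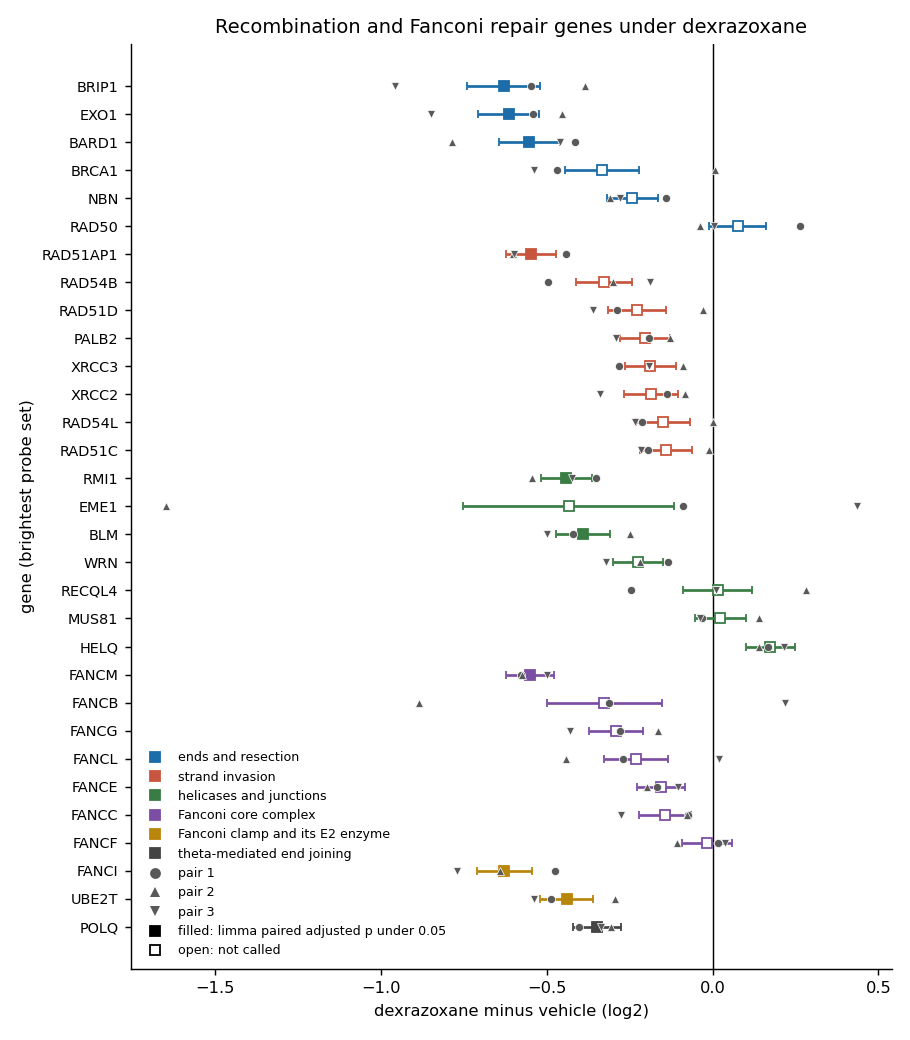
Difference between dexrazoxane and vehicle (log2, horizontal axis) for the 31 measured members, grouped by role. Squares are means of 3 pairs with the SE of the paired limma fit, filled where the adjusted p was under 0.05; small symbols are the 3 pairs. The 10 filled squares lie between -0.63 and -0.35, and 4 members (RAD50, RECQL4, MUS81 and HELQ) have means above 0.

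Genes that act at broken ends held 3 of the 10 calls. EXO1 encodes the exonuclease that lengthens the resected strand (204603_at). It read 8.68, 8.10 and 8.18 on vehicle arrays 1 to 3 and 8.13, 7.64 and 7.33 on dexrazoxane arrays 1 to 3. Dexrazoxane array 1 fell within the vehicle range and the other 2 lay below it. EXO1 fell by 0.62 ± 0.09 (log2, SE of the paired fit, n = 3 pairs; limma adjusted p = 0.0161, and 0.941 without the block), or 1.53-fold.

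BARD1, the obligate partner of BRCA1 in its ubiquitin ligase (227545_at), read 9.41, 8.67 and 8.88 with vehicle and 8.99, 7.88 and 8.42 with dexrazoxane. It fell by 0.55 ± 0.09 (limma paired adjusted p = 0.0201, 1.00 without the block), and by more in pair 2 (-0.78) than in pairs 1 and 3 (-0.41 and -0.46). The helicase gene BRIP1, whose protein binds BRCA1 and also belongs to the Fanconi group (235609_at), had the widest spread of the called members. It read 7.61, 6.18 and 6.76 with vehicle and 7.06, 5.80 and 5.80 with dexrazoxane. Vehicle array 1 stood well above the other vehicle arrays, and dexrazoxane array 1 lay inside the vehicle range. BRIP1 fell by 0.63 ± 0.11 (limma paired adjusted p = 0.0240, 1.00 without the block). Its call was lost without pair 1 (limma paired adjusted p = 0.0809, with a difference of -0.67) and with every probe set tested on its own (0.0529), in a range from 0.00103 to 0.0809. A dimmer BRIP1 probe set (221703_at) differed by -0.30.

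BRCA1 itself, the scaffold that directs breaks towards recombination (204531_s_at), was not called. It read 8.01, 7.06 and 7.33 with vehicle and 7.54, 7.07 and 6.80 with dexrazoxane, a difference of -0.33 ± 0.11 (limma paired adjusted p = 0.126). Pairs 1 and 3 were lower by similar amounts (-0.47 and -0.54), and pair 2 was level (0.01). NBN and RAD50, which with MRE11 form the complex that first binds an end, differed by -0.24 ± 0.08 and 0.08 ± 0.09 (limma paired adjusted p of 0.109 and 0.653). All 4 NBN probe sets above the filter lay below 0, from -0.29 to -0.09, and all 3 of RAD50 above it, from 0.002 to 0.08.

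Among the strand invasion genes every measured member had a mean below 0, and 1 of 8 fell in the paired fit. RAD51AP1, which helps the recombinase filament capture the sister duplex (204146_at), read 10.18, 9.75 and 9.87 with vehicle and 9.74, 9.15 and 9.27 with dexrazoxane. All 3 treated arrays lay below all vehicle arrays. It fell by 0.55 ± 0.08, or 1.46-fold (limma paired adjusted p = 0.0132, and 0.941 without the block).

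RAD54B, a DNA translocase that works with the recombinase (219494_at), read 7.79, 7.48 and 7.58 with vehicle and 7.30, 7.18 and 7.40 with dexrazoxane. The groups did not overlap, yet the difference of -0.33 ± 0.08 was not called (limma paired adjusted p = 0.0676). Its relative RAD54L differed by -0.15 ± 0.08 (0.319). RAD51D, a recombinase paralog (37793_r_at), read 6.45, 6.33 and 6.68 with vehicle and 6.16, 6.30 and 6.32 with dexrazoxane, again with no overlap. The difference was -0.23 ± 0.09 (limma paired adjusted p = 0.174), and a slightly dimmer RAD51D probe set (209965_s_at) differed by -0.02. XRCC2, which joins RAD51D in 1 complex (207598_x_at, a probe set type that can bind related transcripts), read 6.33, 6.66 and 6.55 with vehicle and 6.19, 6.58 and 6.21 with dexrazoxane, and these overlapped (-0.19 ± 0.08, 0.225). RAD51C and XRCC3, the other paralogs, and PALB2, the bridge between BRCA1 and BRCA2, differed by -0.14, -0.19 and -0.20, with limma paired adjusted p of 0.160 to 0.332.

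Of the helicases and junction enzymes 2 of 7 fell, and they are partners. BLM and RMI1 belong to the complex that dissolves joined sister molecules without a crossover. BLM (205733_at) read 7.64, 7.09 and 7.13 with vehicle and 7.21, 6.84 and 6.64 with dexrazoxane. RMI1 (218979_at) read 9.45, 8.81 and 8.76 with vehicle and 9.10, 8.27 and 8.34 with dexrazoxane. In both genes array 1 was the highest of each group and the groups overlapped through it. BLM fell by 0.39 ± 0.08 (limma paired adjusted p = 0.0372) and RMI1 by 0.44 ± 0.08 (0.0234), and neither was called without the block (1.00 for both). BLM lost its call without pair 1 or pair 3 (limma paired adjusted p of 0.139 and 0.148), with no filter (0.0565) and with every probe set tested (0.07), in a range from 0.00865 to 0.148. WRN, another helicase of the same family, differed by -0.22 ± 0.08 (0.132).

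The other 4 genes of that role were not called. HELQ, a helicase that works at blocked forks (1554342_s_at), read 7.22, 7.06 and 7.14 with vehicle and 7.38, 7.20 and 7.35 with dexrazoxane. It was higher in all 3 pairs, by 0.17 ± 0.07, and was not called (limma paired adjusted p = 0.206); 3 of its 4 probe sets above the filter had means above 0, and the fourth differed by -0.03. EME1, a subunit of the MUS81 nuclease that cuts joined molecules (234464_s_at), read 10.56, 10.63 and 10.65 with vehicle and 10.47, 8.98 and 11.08 with dexrazoxane. A single low value on dexrazoxane array 2 carried its mean of -0.43 ± 0.32 (0.466), and without that pair the difference was 0.17. A second EME1 probe set (234465_at) differed by -0.24. MUS81 and RECQL4, a helicase linked to replication, differed by 0.02 each.

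Within the Fanconi core complex all 7 measured genes had means below 0 and 1 fell. FANCM, the translocase that anchors the complex to DNA (234733_s_at), read 6.88, 6.22 and 6.04 with vehicle and 6.31, 5.65 and 5.54 with dexrazoxane. It was lower by similar amounts in pairs 1, 2 and 3 (-0.58, -0.58 and -0.50) and fell by 0.55 ± 0.07 (limma paired adjusted p = 0.0115, 1.00 without the block). The FANCM probe sets did not agree: 242711_x_at differed by -0.33 and 231971_at by 0.10, and the call was lost with the mean of the probe sets (0.0728), with specific probe sets (0.592) and without pair 1 (0.0601), in a range from 0.00123.

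FANCG, a subunit that holds the core together (203564_at), read 8.69, 8.24 and 8.27 with vehicle and 8.41, 8.07 and 7.84 with dexrazoxane, a difference of -0.29 ± 0.08 (limma paired adjusted p = 0.0834). FANCL, the ligase subunit (218397_at), read 8.91, 8.59 and 8.60 with vehicle and 8.64, 8.15 and 8.62 with dexrazoxane (-0.23 ± 0.10, 0.211). Dexrazoxane array 1 overlapped the vehicle arrays in both genes, and array 3 did so in FANCL. FANCB, which binds FANCL (243597_at), read 6.87, 6.20 and 6.32 with vehicle and 6.55, 5.31 and 6.54 with dexrazoxane. As with EME1, dexrazoxane array 2 was the low one on this probe set, and the mean of -0.33 ± 0.17 was not called (0.308). A dimmer FANCB probe set (1553244_at) differed by -0.42. It read 5.86, 5.36 and 5.25 with vehicle and 5.06, 4.99 and 5.14 with dexrazoxane. FANCC, FANCE and FANCF, the remaining measured subunits, differed by -0.14, -0.16 and -0.02 (limma paired adjusted p of 0.254 to 0.915).

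Both measured genes of the clamp step fell. UBE2T, the conjugating enzyme that hands ubiquitin to the clamp (223229_at), read 10.73, 10.21 and 10.33 with vehicle and 10.25, 9.91 and 9.79 with dexrazoxane. It fell by 0.44 ± 0.08 (limma paired adjusted p = 0.0263, 0.941 without the block). Its call was lost without pair 1 (0.114), without pair 3 (0.0885) and with every probe set tested (0.0547), in a range from 0.000325 to 0.114. FANCI, 1 side of the clamp (213007_at), read 9.59, 9.04 and 8.90 with vehicle and 9.12, 8.40 and 8.13 with dexrazoxane. Dexrazoxane array 1 overlapped vehicle arrays 2 and 3, and the other treated arrays lay below all of them. FANCI fell by 0.63 ± 0.08, or 1.55-fold (limma paired adjusted p = 0.0115, 0.951 without the block), and its other probe sets 213008_at and 223785_at differed by -0.46 and -0.24.

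POLQ, the polymerase of an error-prone joining route used when recombination fails (219510_at), read 8.66, 8.04 and 7.97 with vehicle and 8.25, 7.73 and 7.63 with dexrazoxane. The 3 pairs differed by -0.40, -0.31 and -0.34. It fell by 0.35 ± 0.07 (limma paired adjusted p = 0.0389, 1.00 without the block), the smallest change of the 10. POLQ kept its call under 4 of 10 paired alternatives. It lost it without pair 1 (0.153), without pair 3 (0.119), with no filter (0.061), with the mean of the probe sets (0.0655), with specific probe sets (0.0513) and with every probe set tested (0.071), from a lowest value of 0.00784.

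**Figure D3:**
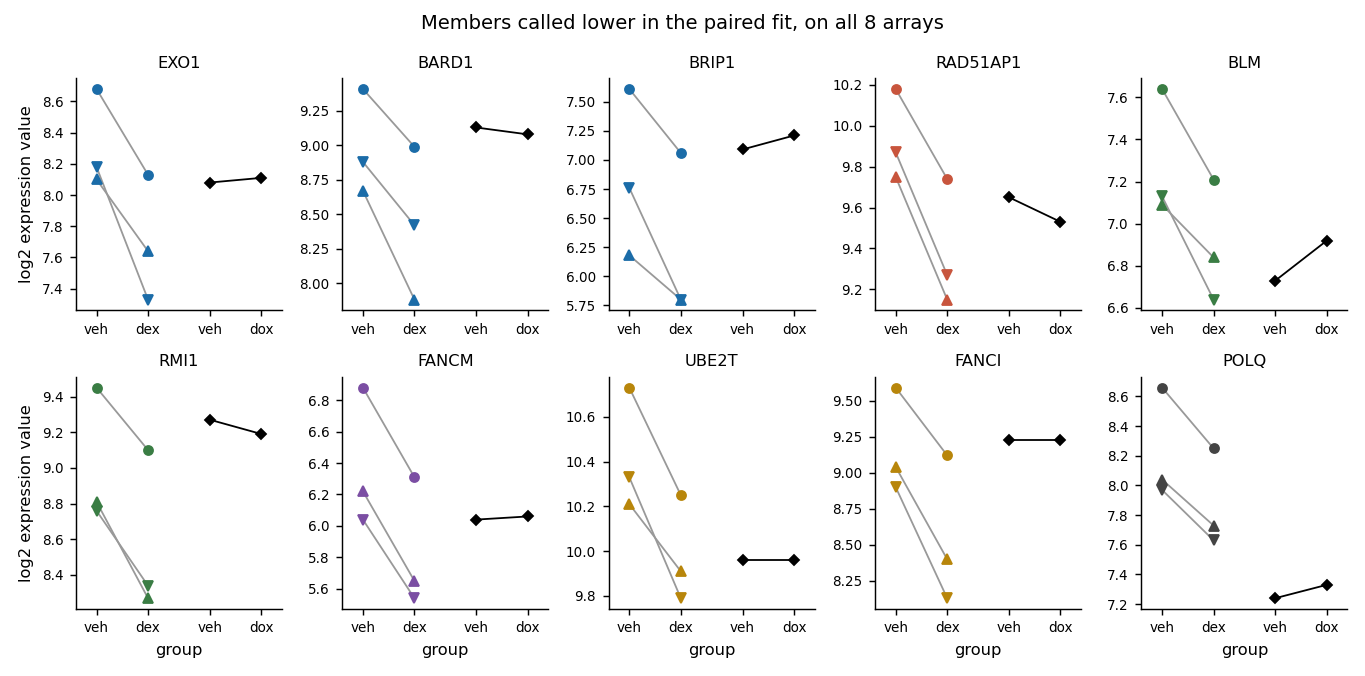
Log2 expression values (vertical axes, each to its own scale) of the 10 members that fell in the paired fit, on vehicle (veh) and dexrazoxane (dex) arrays joined by replicate number (circle 1, upward triangle 2, downward triangle 3), and on the vehicle and doxycycline (dox) arrays (diamonds). All grey lines run downwards, and circles sit at the top of each group; the doxycycline lines are near level.

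With doxycycline, which left TOP2A far lower than dexrazoxane did against its own vehicle, no member stood out by its brightest probe set. There was 1 array a group, so these differences have no error and no test. Of 31 members 0 were at least 1.5-fold lower or higher, where 0.102% and 0.0272% of all genes were. A second POLQ probe set, too dim for the filter (207746_at), read 3.74 with vehicle and 4.36 with doxycycline (0.62). The members ranged from -0.13 to 0.18 with a median of 0.01, against 0.02 for all genes; 14 lay below 0, 16 above and 1 at 0, where 40.7% of all genes lay below.

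The largest doxycycline differences were those of BLM (6.73 with vehicle and 6.92 with doxycycline, 0.18), EME1 (10.08 and 10.23, 0.16), RAD50 (7.69 and 7.84, 0.15) and FANCG (7.88 and 8.01, 0.14). All 4 were higher on the doxycycline array, and 3 of them had means below 0 with dexrazoxane. The lowest was RAD51AP1, at 9.65 and 9.53 (-0.13). UBE2T read 9.96 on both arrays and FANCI 9.23 on both, EXO1 read 8.08 and 8.11, and BRIP1 7.09 and 7.21. Of the 27 members below 0 with dexrazoxane 12 were also below 0 with doxycycline.

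**Figure D4:**
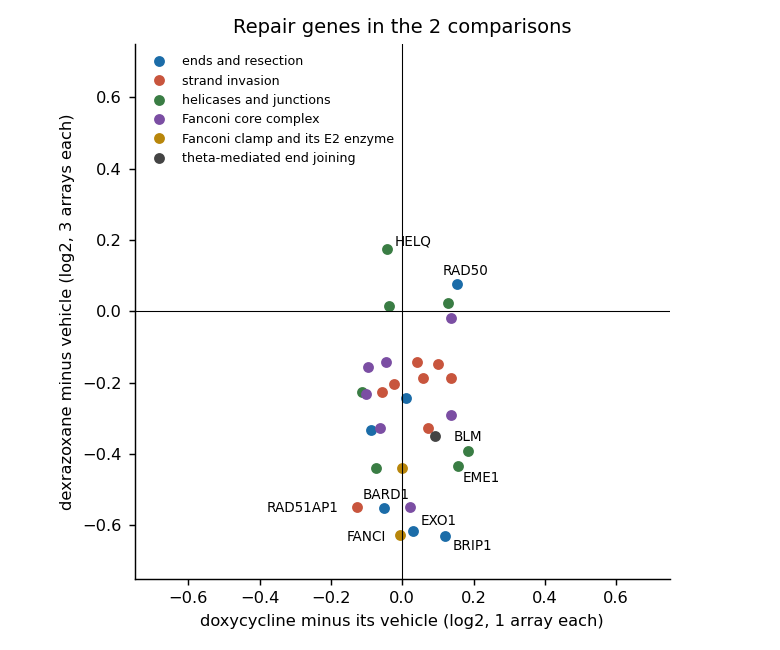
Difference of each of the 31 members with doxycycline (horizontal axis, log2, 1 array each) and with dexrazoxane (vertical axis, log2, mean of 3 arrays each), coloured by role, with equal axes. The members spread from -0.63 to 0.17 vertically and from -0.13 to 0.18 horizontally.

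Other genes of the same pathways, and of related ones, were read from lists of general knowledge. These lists were chosen with earlier results of these data known. Of 44 other recombination and Fanconi genes tested, 6 fell and 2 rose in the paired fit and 0 moved in the other, and their median was -0.07. RMI2, another subunit of the complex of BLM and RMI1, fell by 0.42 ± 0.08, the meiotic recombination gene MND1 by 0.57 ± 0.09 and PARPBP, which restrains recombination, by 0.58 ± 0.08, while FAAP20, a small core complex subunit, rose by 0.49 ± 0.08 (limma paired adjusted p of 0.0134 to 0.0264). TOP3A, the topoisomerase of the BLM complex, named here after its values were seen, was not called (-0.08 ± 0.10, limma paired adjusted p = 0.697). In the replication list 18 of 31 genes fell and 0 rose, with a median of -0.40. RFC4, a clamp loader subunit, fell by 0.51 ± 0.07, the primase gene PRIM1 by 0.61 ± 0.08, GINS1 by 0.56 ± 0.08 and CDC45 by 0.60 ± 0.12 (0.0110 to 0.0308). On the 6 arrays the replication genes ran 0.38, -0.21 and -0.15 with vehicle and 0.05, -0.57 and -0.63 with dexrazoxane. The 6 arrays thus ranked in the same order for the replication genes as for the repair genes. Their part in the repair genes' differences was not tested.

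Repair routes that do not need a sister chromatid were read in the same way. Among 16 end joining genes 0 rose and 0 fell, with a median of -0.10; the 4 with the smallest p without the block, POLL, LIG3, XRCC1 and RIF1, differed by 0.24, -0.20, -0.15 and -0.23 (limma paired adjusted p of 0.127 to 0.378). In nucleotide excision repair 1 of 15 rose and 0 fell, with a median of 0.09. That gene was XPC, a damage sensor that p53 induces (0.47 ± 0.08, limma paired adjusted p = 0.0212). Of 17 p53-induced genes 8 rose and 0 fell, with a median of 0.27; TP53INP1 and TP53I3 rose by 1.04 ± 0.15 and 0.89 ± 0.08, MDM2 by 0.58 ± 0.08 and DDB2 by 0.45 ± 0.08 (limma paired adjusted p of 0.00426 to 0.0265). XPC stands in both of these lists. Unpaired, limma called 0 genes in any of these lists, where at an unadjusted p under 0.05 it held 11 replication genes lower and 8 p53-induced genes higher. At that bound it held 300 of all 14731 genes lower (2.04%) and 465 higher. No difference between lists was tested.

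The members' promoters were then described by sequence, which the choice of genes did not use. Promoter windows from RefSeq (GRCh38.p14, 250 bases before to 50 after each annotated start) were held for 26 of the 31 measured members, and not for FANCI, NBN, RAD54B, RECQL4 or WRN. Both strands were searched for the letters TTCCCGC and for variants of them that read TTCGCGC in one case, TTGGCGC in another and TTGCCGC in the last, all forms of the site bound by E2F factors, which drive genes of the G1 to S transition. A match lay in a window of 18 of 26 members (69.2%), against 22.8% of 11747 tested genes with a window. Counted by window it was 21 of 34 member windows (61.8%) and 13.0% of all 35116 windows. The 35116 windows also cover genes not tested here. By gene, 15.3% of that wider set held a match. Base composition was similar, with a median GC content of 62.2% in the members and 64.0% in tested genes. Matches lay in 7 of 9 members that fell (77.8%) and in 11 of 17 that were not called (64.7%).

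The stretches from 90 bases before to 30 after the start are shown for the 7 members that fell and held a match, because they let the sites be compared by position. They are written 5′ to 3′ on the gene's strand with the E2F letters in capitals, and GCGGGAA is TTCCCGC on the other strand.
EXO1 (chr1:241848114-241848233, plus strand): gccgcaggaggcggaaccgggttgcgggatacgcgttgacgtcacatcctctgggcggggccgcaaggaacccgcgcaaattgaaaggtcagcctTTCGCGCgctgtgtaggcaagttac
BARD1 (chr2:214809654-214809773, minus strand): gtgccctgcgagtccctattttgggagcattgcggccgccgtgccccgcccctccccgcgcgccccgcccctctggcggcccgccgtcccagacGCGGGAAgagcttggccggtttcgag
BRIP1 (chr17:61863499-61863618, minus strand): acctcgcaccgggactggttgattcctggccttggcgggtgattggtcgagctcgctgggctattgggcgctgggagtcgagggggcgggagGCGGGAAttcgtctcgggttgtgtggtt
RAD51AP1 (chr12:4538800-4538919, plus strand): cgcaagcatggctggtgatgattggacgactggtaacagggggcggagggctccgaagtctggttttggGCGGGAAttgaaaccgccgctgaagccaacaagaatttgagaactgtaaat
BLM (chr15:90717256-90717375, plus strand): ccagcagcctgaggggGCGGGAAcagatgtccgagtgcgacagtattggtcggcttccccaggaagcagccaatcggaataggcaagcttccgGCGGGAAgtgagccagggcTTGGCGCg
RMI1 (chr9:83980715-83980834, plus strand): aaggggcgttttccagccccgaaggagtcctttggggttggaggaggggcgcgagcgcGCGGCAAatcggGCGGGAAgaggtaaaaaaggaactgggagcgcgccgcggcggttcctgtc
POLQ (chr3:121545959-121546078, minus strand): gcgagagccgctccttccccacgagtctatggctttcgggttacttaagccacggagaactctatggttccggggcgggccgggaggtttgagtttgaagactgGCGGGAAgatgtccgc

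In EXO1, BARD1 and BRIP1 the match began 6, 5 and 3 bases after the start, and in POLQ at base 15. RAD51AP1 had it 21 bases before the start and BLM had 3, at -74, 4 and 23. RMI1 had 2 in the stretch shown, at -32 and -20, and another at -188, in 1 of its 2 windows; EXO1 also had a second window, with no match. UBE2T and FANCM, the other members that fell and had a window, held none of these letters there. Over all members there were 26 matches at 24 sites, since overlapping windows of RAD51D and RAD54L each counted 1 site again, and 22 of the 26 began within 100 bases before the start or after it. The form TTCCCGC made up 19 of them, in 15 members. None overlapped a match of the motifs described next.

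The CCAAT box (CCAAT, bound by NF-Y) lay in a window of 13 of 26 members against 42.5% of tested genes. Counted by window it was 15 of 34 member windows (44.1%) and 34.6% of all windows, again including genes not tested. The CHR element, which repressor complexes of the cell cycle bind (TTTGAA or TTCGAA), lay in 5 of 26 members (19.2%) against 16.0% of tested genes. By window it was 6 of 34 (17.6%) and 16.4% of the same wider set. Over all 26 members both shares were close to those of tested genes. Between members that fell and members that were not called they lay further apart, at 6 of 9 (66.7%) and 7 of 17 (41.2%) for CCAAT and 3 of 9 (33.3%) and 2 of 17 (11.8%) for CHR, with no test made on these small counts. BRIP1 held 3 CCAAT boxes, at -117, -49 and -28, and BLM 3, at -141, -46 and -21. XRCC3, which was not called, held more, at -216, -171, -108, -66 and -33. A match of letters is a description of the window and no evidence that a factor binds there.

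**Figure D5:**
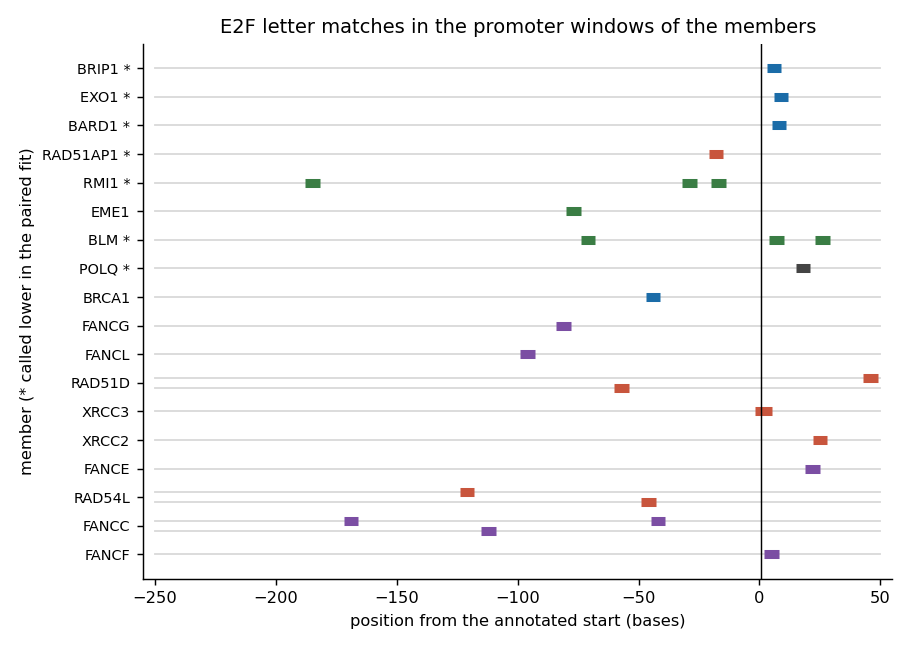
Positions of E2F letter matches (bars) from the annotated start (horizontal axis, bases) in the promoter windows (grey lines) of the 18 members that held one, ordered by their difference with dexrazoxane and coloured by role; an asterisk marks members that fell in the paired fit. Most bars lie within 100 bases of the start, in members that fell and in members that were not called.

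The span of the 31 members in the same gene table had a median of 43.0 kb, against 26.7 kb over 14712 tested genes, and its rank correlation with the dexrazoxane difference was -0.25 across members and -0.17 across all genes (Spearman, a description across genes, which are not independent). BRIP1, at 184 kb, had the lowest difference, and FANCC, the longest member at 219 kb, differed by -0.14. RAD51AP1 and UBE2T, at 21.2 and 10.3 kb, were among those that fell. The shortest members were FANCF, FANCG, RECQL4, MUS81 and EME1, at 3.29, 6.1, 6.55, 7.98 and 8.26 kb. They differed by -0.02, -0.29, 0.02, 0.02 and -0.43. A part of gene length in the differences was not tested.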

How the data were processed

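Expression was deposited as log2 values, 1 for each probe set, which the authors computed with RMA according to the submitters' processing notes. That method subtracts background, gives arrays a common distribution and summarises probes; the sources used here do not say whether all 8 arrays were processed together. Probe sets with 1 gene symbol in the platform annotation (41097 of 54675) were used, with 41043 symbols updated through Entrez identifiers in a RefSeq gene table (GRCh38.p14). Each gene was read from its brightest probe set, by the mean of 8 arrays. A gene entered the tests when this mean was no lower than 4.83, the 40th percentile over probe sets, which left 14731 of 19775.

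For dexrazoxane against vehicle, linear models were fitted in limma (3.58.1, under R 4.3.3) with moderated variances; p-values are two-sided and adjusted by Benjamini-Hochberg over all genes tested, with a bound of 0.05. The planned fit had no block. The labels share replicate numbers across the groups but do not say what a number stands for. Same-numbered arrays deviated together from their group means (r = 0.823, 0.574 and 0.716, each over a bound of 0.1). Arrays of unlike number had r from -0.629 to 0.181. The highest of these, dexrazoxane array 3 with vehicle array 2, also passed that bound. The numbers were taken as pairs from these same data. The fit with the replicate number as a block is given beside the planned fit. Standard errors are from the paired fit. Doxycycline, with 1 array a group, was not tested. The procedure was tested on simulated data.

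Members and lists were chosen with earlier results of these data known. All members are named; values of every array are given for the 4 members of each role with the smallest p without the block and the 4 with the largest doxycycline difference. From other lists up to 4 genes with the smallest p are named. Alternatives changed the filter, the choice of probe set, the array scaling and the variance model, and left out each array or pair. The number of arrays limits the precision.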

Additional observations from a re-analysis of the deposited data

How the results depend on the processing

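The choice of fit decided the calls: without the replicate block 0 genes and 0 members passed, and with it, pairing arrays by number, 357 genes were called higher and 360 lower, of which 10 were members. In the paired fit the counts of genes higher, genes lower and members lower were 195, 230 and 8 with no filter, 553, 512 and 11 with a stricter filter (60th percentile), 348, 339 and 8 with the mean of the probe sets, 173, 225 and 8 with specific probe sets, 164, 271 and 6 when each probe set was tested alone, 366, 371 and 10 with arrays centred on their medians, and 992, 852 and 14 with a trended and robust variance. Leaving out 1 pair gave 42 to 416 genes higher, 56 to 414 lower and 2 to 12 members lower, the lowest each time without pair 1; without pair 3 the counts were 211, 200 and 9. Without the block, specific probe sets, testing each probe set alone and the trended variance each called 1 gene lower, and leaving out 1 array called 0 to 1. The median member difference with dexrazoxane was -0.29 with specific probe sets in both fits, -0.44 to -0.13 leaving out 1 array and -0.27 to -0.22 leaving out 1 pair. The doxycycline median turned to -0.0098 after quantile normalisation.

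Of the members' own values 27 changed sign under an alternative, all in members called by neither fit except FANCM, which read 0.10 with specific probe sets in both fits (limma paired adjusted p = 0.592). RECQL4 read -0.04 with the mean of the probe sets and -0.096 with specific probe sets in both fits, and -0.12 without pair 2. HELQ read -0.033 with specific probe sets in both fits. RAD50 read -0.017 without pair 1, and without pair 2 MUS81 read -0.035, EME1 0.17 and FANCF 0.027. Leaving out 1 array in the fit without the block gave ranges across 0 of -0.0205 to 0.1332 for RAD50, -0.2648 to 0.0103 for RAD54L, -0.062 to 0.1352 for RECQL4, -0.1004 to 0.1732 for MUS81, -0.8868 to 0.1639 for EME1, -0.5355 to 0.0839 for FANCB, -0.4037 to 0.0975 for FANCE and -0.0675 to 0.0452 for FANCF. The cause was not tested.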
